A study of Equus caballus with 93 samples.

Results

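The week 2 comparison set RNA from synovial fluid cells of 16 horses at 2 weeks after joint surgery against RNA from the same horses before it. The libraries labelled week 2 and week 0 were chosen by their labels and paired by horse number, with both treatment arms together. They make up 32 of the 93 libraries, or 16 pairs. The horses were 2 to 5 years old, 7 mares and 9 geldings. Every horse had an osteochondral fragment made surgically in a middle carpal joint, a model of osteoarthritis, and a sham operation on the opposite limb. At week 2 the operated joint received 2 mL of either phosphate buffered saline (Control, 8 horses) or 2.5% injectable polyacrylamide hydrogel (iPAAG, 8 horses). Neither the order of injection and fluid collection at week 2 nor the joint behind each tube is stated in the labels. All horses carried the fragment, so surgery, 2 weeks of time and repeated puncture of the joint cannot be told apart. The exercise programme began at week 2.

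Synovial fluid is a filtrate of plasma to which the lining of the joint adds hyaluronan and lubricin. In a resting joint it holds few cells, mostly macrophages and lymphocytes with shed lining cells, and after an injury to cartilage and bone white cells enter the space and the lining becomes inflamed. The RNA was bulk RNA of the pelleted cells, so fewer cells of a type and less RNA per cell cannot be told apart. The deposited table names genes by Ensembl horse identifiers alone, and 0 of its 15838 identifiers could be paired with a gene symbol. The labelled cell type could therefore not be checked against marker genes, and the changes are described by level, size and agreement between horses.

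In 3 of the 32 libraries the values were compressed. Library spread, the SD of log2 CPM over all genes (CPM, reads scaled to a library size set by the authors), was 1.34 in Control horse 10 at week 2, 1.65 in iPAAG horse 14 at week 0 and 1.68 in the same horse at week 2. The next lowest value was 2.39, in iPAAG horse 12 at week 2. Libraries with a spread below 2 were left out of the main comparison, which kept 14 complete pairs, 7 in each arm, and the values with all 16 pairs are given beside it. In these 14 pairs the libraries held 17431476 to 36660119 reads in genes at week 0 and 20938954 to 29014829 at week 2. The mean was 28593216 ± 5306648 and 24555540 ± 2659639 (SD, n = 14). Reads were fewer at week 2 in 9 of 14 horses, with an exact sign-flip permutation p of 0.0427 (two-sided) and 0.0997 after adjustment over 7 measures per library. With all 16 pairs they were fewer in 11 of 16 (exact permutation p = 0.0146, adjusted p = 0.102).

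At week 2 the cells differed from the baseline in about as many genes upwards as downwards. Of 15838 genes, 5477 were called, that is had an adjusted p below 0.05 in a paired limma fit with Benjamini-Hochberg adjustment, which is 34.6% of those tested. Of these, 2816 genes rose (17.8%) and 2661 fell (16.8%). With all 16 pairs, 3862 genes were called (24.4%), 1676 higher (10.6%) and 2186 lower (13.8%), and 3699 of them were among the 5477, each with the same sign. Leaving out 1 horse at a time gave 4809 to 5676 genes.

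The balance of rises and falls depended on how libraries were scaled. The size used by the authors was 0.918 ± 0.0388 of the reads in these genes at week 0 and 0.804 ± 0.0487 at week 2 (SD, n = 14). Reads in genes that the authors left out, if any, also enter this size, so the ratio need not be the scaling alone. The ratio was lower at week 2 in 12 of 14 horses (exact sign-flip permutation p = 0.000854, adjusted p = 0.00598 over 7 measures). With all 16 pairs it was lower in 13 of 16. The mean difference was then -0.03 ± 0.32 (SD, n = 16) and did not pass (exact permutation p = 0.885), with horse 10 at 2.05 at week 2. On the deposited scale the median change over all genes was 0.01 on the log2 scale, and 51.4% of the called genes were higher. With plain CPM, which divides by all reads in these genes, the median was -0.18, and 1708 genes were higher and 4427 lower (27.8% higher). With each library centred on its median gene the median was 0.17, and 4063 were higher and 1839 lower (68.8% higher). Statements on the number of rises against falls, also within a group of genes, therefore hold for the deposited scale. Differences in change between groups of genes do not depend on the choice of 1 factor per library. They can depend on methods that reshape the values within a library, such as quantile normalisation.

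From 2 log2 CPM upwards, the change was ordered by how abundant a gene was before surgery. Abundant genes moved upwards relative to genes of middling level. Genes with a mean week 0 level of 2 to 4 log2 CPM had a median change of -0.22, and 323 of 2993 rose while 794 fell. In the range of 4 to 6 the median was -0.02, with 864 rises and 1032 falls among 4317 genes. From 6 to 8 it was 0.10, with 936 rises and 481 falls among 2944 genes. At 8 and above it was 0.17, with 233 rises and 75 falls among 697 genes. Below 2 the order did not hold: at 0 to 2 the median was -0.23, with 158 rises and 241 falls among 1942 genes, and below 0 it was 0.45. The share of genes called from 2 upwards was 37.3%, 43.9%, 48.1% and 44.2% in these 4 ranges, beside 34.6% of all genes.

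**Figure D1:**
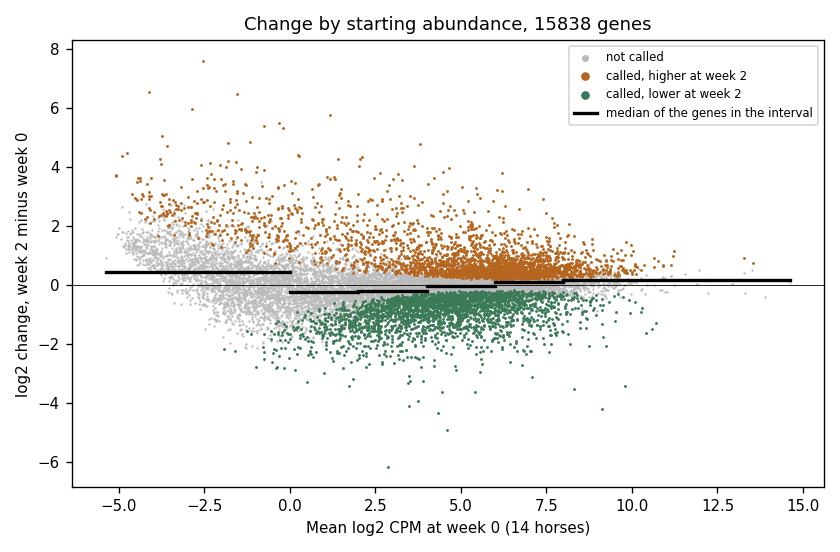
Each point is a gene, plotted by its mean log2 CPM at week 0 over 14 horses and its log2 change from week 0 to week 2, with called rises and falls coloured and black bars at the median of each abundance range. The medians lie at -0.22 for levels of 2 to 4, 0.10 for 6 to 8 and 0.17 for 8 and above.

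A gene that was low by chance at week 0 will tend to look higher afterwards, so the ranges were also set from the week 0 libraries of the opposite arm, which share no library with the change. In Control horses the median change was then -0.06 for levels of 0 to 2, -0.19 for levels of 2 to 4, 0.12 for 6 to 8 and 0.20 for 8 and above. In iPAAG horses it was -0.40, -0.23, 0.06 and 0.14. Taken per horse, the median change of the genes at 8 and above exceeded that of the genes at 2 to 4 by 0.40 ± 0.31 on the log2 scale (SD, n = 14), with a range of -0.15 to 0.75. It was higher in 12 of 14 horses, with an exact two-sided sign-flip permutation p of 0.000854 and 0.00256 after adjustment over 3 differences. The 2 exceptions were iPAAG horses 12 and 17, whose week 2 libraries had the lowest spread of those kept, 2.39 and 2.49. Genes at 6 to 8 exceeded those at 2 to 4 by 0.30 ± 0.25 (SD, n = 14), also in 12 of 14 horses (exact permutation p = 0.00171, adjusted p = 0.00256). These differences were chosen after the medians had been seen. With all 16 pairs the first was 0.15 ± 0.94 (SD, n = 16, exact permutation p = 0.646). Horse 10 then had a value of -3.18, and 13 of 16 horses were above 0. In the fit with all 16 pairs the median changes were -0.15 at 2 to 4 and 0.01 at 8 and above, where 48 genes rose and 78 fell. In the 10 pairs with a spread of at least 3 in both libraries the first difference was 0.47 ± 0.24 (SD, n = 10). It was above 0 in 10 of 10 (exact permutation p = 0.00195). That cut leaves out horses 12 and 17, the 2 exceptions, so the count and its p were fixed by the cut and do not test the difference. With plain CPM the medians were -0.41 at 2 to 4, -0.09 at 6 to 8 and -0.02 at 8 and above, so that the order held but the direction at the upper end turned. Quantile normalisation, which gives every library the same distribution, removed the order, with medians of -0.02 at 2 to 4 and -0.09 at 8 and above.

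On the log2 scale, genes that were scarce before surgery varied most between horses. Those below 0 log2 CPM at week 0 had a median of 10 reads per library and a median change of 0.45 on the log2 scale. Their median SD between horses at week 0 was 1.98, against 0.58 over all genes. The part of low read counts in this SD was not tested. Of these 2945 genes, 302 rose and 38 fell, so 11.5% were called, beside 34.6% of all genes. The week 0 level that places a gene here also enters its change. Among the 2936 genes below 0 by the mean of both weeks, 202 rose and 83 fell, and the median change was 0.29. With levels taken from the opposite arm, the median change per horse ran from -2.06 in horse 7 and -1.72 in horse 8 to 2.42 in horse 17 and 2.64 in horse 12, and was above 0 in 10 of 14. The same horses stood at the ends in the change of library spread, which rose by 0.85 in horses 7 and 8 and fell by 0.96 in horse 17 and 1.09 in horse 12. The part of library spread in the change of scarce genes was not tested. The difference between the scarce genes and those at 2 to 4 did not pass an exact sign-flip permutation test (0.50 ± 1.25, SD, n = 14, p = 0.161). In the 10 pairs with a spread of at least 3 the median change of the scarce genes was 0.06, with 197 rises and 81 falls.

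**Figure D2:**
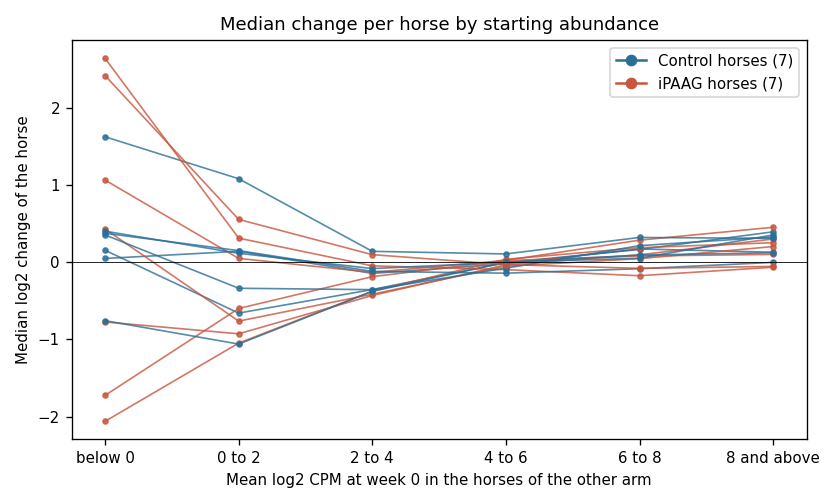
Each line is 1 of 14 horses, coloured by arm, and shows the median log2 change of its genes in 6 ranges of week 0 level, the level being taken from the horses of the opposite arm. Lines spread from -2.06 to 2.64 below 0 log2 CPM and from -0.07 to 0.45 at 8 and above, where 11 of 14 are above 0.

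A straight line through all genes did not capture this pattern. The slope of a horse's change on the week 0 level in the opposite arm was -0.04 ± 0.18 log2 per log2 CPM (SD, n = 14), below 0 in 8 of 14 horses (exact sign-flip permutation p = 0.385, adjusted p = 0.478 over 7 measures). Among genes with a mean of at least 1 log2 CPM the slope was 0.02 (exact permutation p = 0.371). Mean library spread was 3.42 ± 0.31 at week 0 and 3.34 ± 0.47 at week 2 (SD, n = 14), which did not pass the test (exact permutation p = 0.593). Spread also decided which libraries were kept. With all 16 pairs it was 3.30 ± 0.53 and 3.11 ± 0.76 (SD, n = 16, exact permutation p = 0.309). Thinned to the depth of the shallowest library used, a library was expected to show 15138 ± 527 genes at week 0 and 15296 ± 384 at week 2 (SD, n = 14, exact permutation p = 0.41). With all 16 pairs the mean difference in expected genes was 128 (exact permutation p = 0.542). The mean slope over all genes was then -0.09 (exact permutation p = 0.181).

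Reads became more concentrated in the most abundant genes. The 100 most abundant genes of a library held 24.3% ± 1.46 of its reads at week 0 and 25.9% ± 1.65 at week 2 (SD, n = 14). The share was higher at week 2 in 10 of 14 horses (exact sign-flip permutation p = 0.00867, adjusted p = 0.0303 over 7 measures). Of the 100 genes with the highest mean level at week 0, 82 were also among the 100 highest at week 2. On the deposited scale 39 rose and 10 fell, beside 17.8% and 16.8% of all genes. Among all 697 genes at 8 log2 CPM and above, 233 rose and 75 fell, so this split was not particular to the 100 highest. With plain CPM 131 of the 697 rose and 155 fell. With all 16 pairs the mean difference was 0.643 percentage points, against 1.69 in the 14 pairs, and no longer passed (exact permutation p = 0.634), and it was higher in 11 of 16 horses. In horse 10 at week 2 the 100 most abundant genes held 8.94% of the reads.

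Rises of at least 2 on the log2 scale were more numerous than falls of that size. A change of at least 1 on the log2 scale was reached by 920 of the genes that rose and 1030 of those that fell. At least 2 was reached by 372 and 155, and at least 3 by 117 and 18. The median week 0 level of genes that rose by at least 2 was -0.62 log2 CPM, and that of genes that fell by at least 2 was 2.95. The week 0 level is one of the terms of the change, so large rises start low and large falls start high in part by construction. Placed by the mean of both weeks, 144 of the 372 rises lay below 0 log2 CPM and 84 at 0 to 2, and 35 of the 155 falls lay below 0 and 52 at 0 to 2. Of the genes with a rise of at least 1, 162 of 920 had a median below 10 reads at week 0, and of those with a fall of at least 1, 75 of 1030 had a median below 10 reads at week 2. For such genes the 0.5 reads added to each count limit the size of the fold. At 2 or more, 202 genes rose and 205 fell in the 7 iPAAG pairs alone, and 355 and 104 in the 7 Control pairs alone. The counts were 298 and 226 with plain CPM, 454 and 110 with median centring and 345 and 85 with all 16 pairs. In the 10 pairs with a spread of at least 3 they were 344 and 276. At 3 or more, rises outnumbered falls with plain CPM (90 against 25), with median centring (146 against 16) and with all 16 pairs (96 against 11).
The median change was 0.65 among genes that rose and -0.83 among those that fell, with a median standard error (SE) of 0.16 over called genes, and 29.0% of called genes changed by less than 0.5. The smallest change called was 0.18. In contrast, 934 genes had a fitted change of 1 or more and were not called. Their median week 0 level was -2.10 log2 CPM and their median SE 0.77.

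Agreement between horses was high for the called genes, but seldom complete. Of the 5477 genes, 1038 (19.0%) moved the same way in 14 of 14 horses, 604 upwards and 434 downwards, and 3895 (71.1%) did so in at least 12. Over all 15838 genes tested, 6.56% had 1 sign in every horse and 26.4% had it in at least 12. The direction was part of the fit that called the genes, so these shares describe the calls and do not test them. A called gene with a change below 0.5 had the same sign in every horse in 7.42% of rises and 5.79% of falls. For changes of 3 or more the shares were 55.6% of 117 rises and 44.4% of 18 falls. Rises of 2 to 3, whose median week 0 level was -0.34 log2 CPM, were in every horse in 25.9% of cases, fewer than the 31.8% of rises of 1 to 2, whose median level was 4.12.

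**Figure D3:**
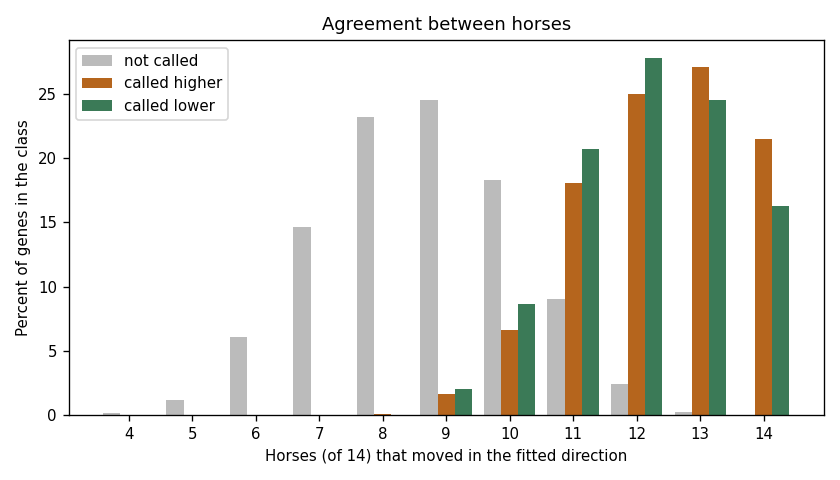
Bars give the percent of genes, within each class, by the number of 14 horses that moved in the fitted direction. Of the genes that rose 21.4% and of those that fell 16.3% moved that way in 14 of 14 horses, and genes not called peak at 9 horses.

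Complete separation of the weeks was nearly confined to rises on the deposited scale. In 92 of the 15838 genes tested every week 2 value lay above every week 0 value, and in 2 every week 2 value lay below. All of them were among the called genes, which were 34.6% of all genes. These 92 genes had a median week 0 level of 5.60 log2 CPM and a median change of 1.64. With plain CPM the counts were 55 and 21, and with median centring 124 and 2. Genes with 1 sign in every horse depended more on the scale: 336 rises and 868 falls were called with plain CPM and 817 and 250 with median centring, against 604 and 434.

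Each horse was then set against the genes called without it, so that its own values played no part in the choice. For the 14 horses, the fits without them called between 4809 and 5676 genes. The share of these genes that moved the same way in the horse left out ranged from 65.8% in Control horse 1 to 94.4% in iPAAG horse 5, with a median of 81.0%. It was above 50% in 14 of 14 horses. For genes called with a change of at least 1, the range was 75.4% to 95.5%. Genes called higher had a median change in the horse left out of 0.31 to 0.91 on the log2 scale, and genes called lower -1.20 to -0.21, beside a median over all genes of -0.21 to 0.30. Across genes with a mean of at least 1 log2 CPM, the horse's changes had a Pearson r of 0.44 to 0.79 with the fit without it, as a description over genes that share libraries.

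The size of the measured change differed between horses. The slope of a horse's changes on those fitted in the other horses was 1.37 in Control horse 15, 1.21 in iPAAG horse 7 and 1.09 in iPAAG horse 5, and 0.48 in iPAAG horse 17, 0.67 in Control horse 1 and 0.73 in iPAAG horse 12. The median over the 14 horses was 0.85. Horses with a high slope and horses with a low slope were found in both arms. The change in library spread was -0.96 in horse 17, -1.09 in horse 12 and 0.85 in horse 7. It was also 0.85 in horse 8, with a slope of 0.82, and -0.67 in horse 11, with a slope of 1.03. The part of library spread in these slopes was not tested. The share of genes, among those with a mean of at least 1 log2 CPM, that moved by 1 or more ranged from 9.08% in horse 17 to 32.3% in horse 6.

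The horses with compressed libraries entered none of these fits. In iPAAG horse 14, in which both libraries had a low spread, 84.2% of the 5477 called genes moved in the fitted direction, with 85.2% of rises and 83.1% of falls. The changes were smaller, with a median of 0.36 for genes called higher and -0.39 for genes called lower and a slope of 0.54. In Control horse 10, in which the week 2 library alone had a low spread, 38.8% moved in the fitted direction, 27.1% of rises and 51.3% of falls, and the slope was -0.27. Its week 2 library held 5355869 reads, against 30471301 at week 0.

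**Figure D4:**
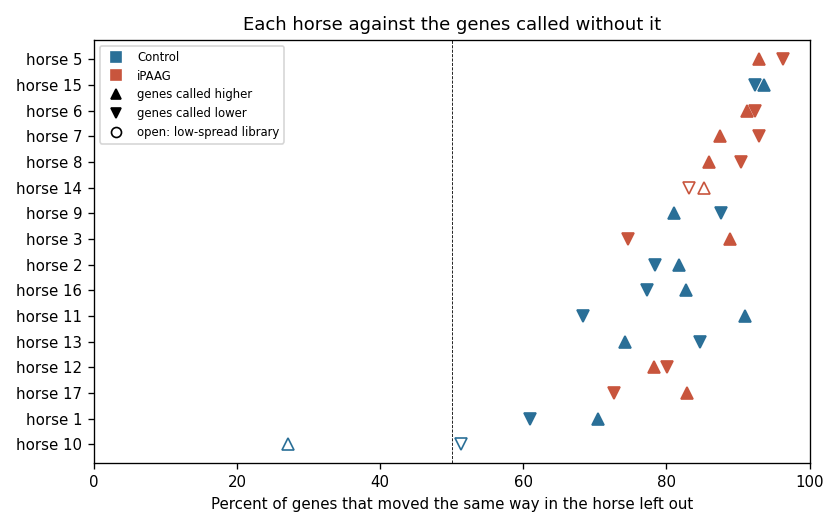
For each horse, triangles give the percent of genes called higher (upwards) or lower (downwards) without it that moved the same way in it, with open symbols for the pairs with a low-spread library and a dashed line at 50%. The 14 horses of the main comparison lie between 60.9% and 96.3%, horse 14 at 85.2% and 83.1%, and horse 10 at 27.1% and 51.3%.

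Genes called higher gained in their share of reads, and genes called lower lost. In the fit of all 14 pairs they were 17.8% and 16.8% of all genes. Genes not called in that fit held 57.9% of reads at week 0 and 51.6% at week 2. Genes called higher without a horse held 27.8% ± 2.69 of that horse's reads at week 0 and 39.9% ± 2.78 at week 2 (SD, n = 14), and the share rose in 14 of 14 horses. The lowest value at week 2, 35.6%, was above the highest at week 0, 32.0%, so the weeks did not overlap. Genes called lower without a horse held 12.8% ± 1.60 and 6.80% ± 2.04 of its reads (SD, n = 14). Their share fell in every one of the 14 horses, from 10.2% to 15.1% at week 0 to 4.52% to 11.5% at week 2, so that the weeks overlapped. In horse 14 the genes called higher went from 25.7% to 36.6% of reads and those called lower from 14.6% to 8.65%. In horse 10 they went from 31.1% to 23.7% and from 11.7% to 14.2%. These shares use plain reads and do not depend on the authors' scaling, although which genes were called does.

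The largest changes among genes above a floor of 1 log2 CPM at baseline are given by identifier. They were taken from the 542 rises and 434 falls with a mean of at least 1 log2 CPM at week 0 and the same sign in 14 of 14 horses, and agreement in the 14 horses is part of their choice. What these genes encode is not given in the sources used here.

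ENSECAG00000011663 had a level of -0.36 to 2.81 log2 CPM at week 0, with a median of 1.14, and of 3.77 to 8.41 at week 2, with a median of 7.27. The weeks did not overlap, and the 2 lowest week 2 values were those of Control horses 13 and 1, at 3.77 and 3.98, whose week 0 values were, with that of iPAAG horse 3, the lowest. It rose by 5.77 ± 0.34 on the log2 scale (SE, n = 14, limma adjusted p = 1.4e-08), from a median of 63 reads to 2970, with changes of 3.84 to 8.03 between horses. In the horses with compressed libraries its change was 4.45 in horse 10 and 2.06 in horse 14.

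ENSECAG00000046821 had a level of 1.81 to 6.90 log2 CPM at week 0, with a median of 4.07, and of 6.25 to 10.55 at week 2, with a median of 8.94. The weeks overlapped through iPAAG horse 12, which had the highest week 0 value and the smallest rise of the 14, 1.08. It rose by 4.77 ± 0.49 on the log2 scale (SE, n = 14, limma adjusted p = 3.13e-06). The largest rise, 8.21 in Control horse 15, ended at 10.51. Horse 10 had a change of -1.39 and horse 14 one of 5.47.

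ENSECAG00000000385 had a level of 1.64 to 5.93 log2 CPM at week 0, with a median of 4.71, and of -1.32 to 2.26 at week 2, with a median of -0.34. The weeks overlapped at the ends, since horse 12 was at 2.34 before surgery and 2.26 after, and Control horses 13 and 2 started at 1.64 and 2.25. It fell by 4.35 ± 0.48 on the log2 scale (SE, n = 14, limma adjusted p = 6.55e-06), from a median of 732 reads to 15.5. Horses 10 and 14 had changes of -1.37 and -3.01.

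ENSECAG00000023772 was abundant before surgery, at 6.17 to 10.67 log2 CPM with a median of 9.68, and stood at 3.33 to 7.82 with a median of 4.37 at week 2. It fell by 4.21 ± 0.48 on the log2 scale (SE, n = 14, limma adjusted p = 8.08e-06). The change was -7.29 in iPAAG horse 8 and -0.01 in iPAAG horse 12, in which the gene stood at 7.75 and 7.74. In horses 10 and 14 the changes were -3.97 and -3.94, close to the fitted value although the libraries were compressed.

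**Figure D5:**
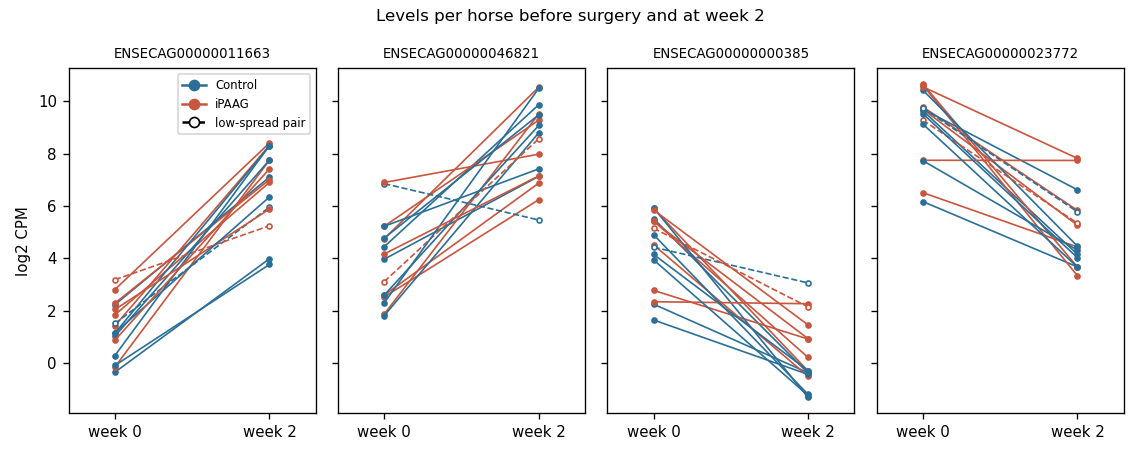
Lines join the week 0 and week 2 levels (log2 CPM) of each horse for 4 genes, coloured by arm, with dashed lines and open points for the pairs of horses 10 and 14. ENSECAG00000011663 and ENSECAG00000046821 rose and ENSECAG00000000385 and ENSECAG00000023772 fell in all 14 horses of the main comparison, and horse 12 has the flattest line in each panel among these 14.

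Horse 12 showed the smallest change of the 14 in each of these 4 genes. Its week 0 levels lay towards the side to which the other horses moved. They were the highest of the 14 for ENSECAG00000046821, 6.90, and the fourth highest for ENSECAG00000011663, 2.04, the third lowest for ENSECAG00000000385, 2.34, and the fourth lowest for ENSECAG00000023772, 7.75. Its week 2 library also had the lowest spread of those kept, 2.39. The parts of starting level and library spread in its small changes were not tested. Of the 5226 genes called without horse 12, 79.1% moved the same way in this horse, beside a median of 81.0% over the 14 horses.

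The arms had not been shown to differ at this time. The change from week 0 to week 2 differed between iPAAG and Control horses in 0 of 15838 genes by limma (0%), with 663 at an unadjusted p below 0.05 and a smallest adjusted p of 0.887, and in 0 genes with all 16 pairs (344 at an unadjusted p below 0.05). With 1 horse left out the count stayed at 0, while 2027 genes had an unadjusted p below 0.05 without Control horse 9, with a smallest adjusted p of 0.071. Within the arms, 1775 genes were called in the 7 Control pairs alone and 3606 in the 7 iPAAG pairs alone, and this difference in counts was not tested. The 4 named genes changed by 5.74, 5.32, -4.80 and -4.49 on the log2 scale in Control horses and by 5.80, 4.23, -3.90 and -3.93 in iPAAG horses, in the order in which they are described. None of the 7 measures per library differed between the arms in its change (exact permutation, smallest p = 0.207, smallest adjusted p = 0.862).

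Horses were not shown to be more alike after surgery. The root mean square distance of a horse from the mean of the others, over genes with a mean of at least 1 log2 CPM, was 0.71 ± 0.25 at week 0 and 0.62 ± 0.12 at week 2 on the log2 scale (SD, n = 14). It was larger at week 2 in 8 of 14 horses (exact sign-flip permutation p = 0.308). The week 0 library of Control horse 11 stood at 1.44, and without that horse the mean difference went from -0.09 to -0.02. By gene, the SD between horses was lower at week 2 for 64.0% of genes, and for 55.4% without horse 11. Genes that fell had nearly equal SDs at both weeks, with medians of 0.56 and 0.57, and 51.8% of them had the lower SD at week 2.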

How the data were processed

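RNA of synovial fluid cells was sequenced after a low-input stranded library preparation, per the protocols in the labels. The authors deposited 1 table of log2 values, voom log2 CPM, for 15838 genes in 93 libraries. The submitters' processing notes name STAR 2.7.10b, EquCab3.0 and limma 3.62.2. How reads were counted, whether strand was used, the annotation and any filter of low genes are not stated by these sources, so genes that overlap or have near-identical copies are uncertain. In each library the smallest log2 value stands for 0 reads plus 0.5, and on that scale 100.0% of values were whole reads within 0.05. Depth and read shares come from these recovered reads, which are PCR copies and not counted molecules.

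Each library was assigned to arm, week and horse by its label, and week 2 was compared with week 0 in limma 3.58.1 (R 4.3.3) with horse as a fixed block, a mean-variance trend and Benjamini-Hochberg adjustment over all genes at 0.05. A horse with 1 library left informs no difference in that fit. Same-numbered libraries are from the same animal. Their deviations from the week means had a mean correlation of 0.12 over 14 pairs, against -0.01 between horses. Within pairs the correlation ranged from -0.37 to 0.53, with 8 of 14 above 0.1. No pair of libraries in a group agreed within sampling noise (smallest chi-square per degree of freedom 50.5). Measures per library were tested by exact two-sided sign flips of the within-horse differences (16384 for 14 pairs), and arms by exact permutation of horses. The paired fit was tested on simulated data. Other steps ran in Python 3.11.15 (scipy 1.17.1, numpy 2.4.6, matplotlib 3.10.9, pandas 2.3.3).

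The named genes are the 2 largest rises and 2 largest falls among called genes with a mean week 0 level of at least 1 log2 CPM and the fitted sign in every pair. Gene lists and cell type markers could not be matched, and 0 were tested. The members, lists and alternatives were chosen with earlier results of these data known. Alternatives were other libraries, blocks, scalings, weights, filters, added reads and leaving out each horse.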

Additional observations from a re-analysis of the deposited data

Results flagged for a closer look

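In 36 sets of values (a measure or named gene in an arm at a week), 10 values lay far from the others of their set by Dixon's criterion, which chance meets in about 1 of 20 sets. The 10 values came from 4 libraries. The week 0 library of Control horse 11 had the highest spread, 4.21, the fewest reads of its group, 17431476, and the fewest genes at a common depth, 13478. The week 2 library of Control horse 10 had a spread of 1.34, 5355869 reads, 8.94% of reads in its 100 most abundant genes and a level of 3.06 log2 CPM for ENSECAG00000000385. In iPAAG horse 14 the week 0 library had a spread of 1.65, and the week 2 library had 7877238 reads and 19.7% of reads in its 100 most abundant genes. Horses 10 and 14 were outside the main comparison. Without horse 11, 5604 genes were called, 2698 higher and 2906 lower.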

How the results depend on the processing

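The number of called genes, 5477, stayed between 3862 and 6362 under the other settings of libraries, block, scaling, weights, filter and added reads, and was 1775 and 3606 in the 7 Control and 7 iPAAG pairs alone, which have fewer samples. Without a replicate block it was 5532, and with horse as a random replicate block 5789, and 5107 and 5219 of these genes were shared with the paired fit. In these 2 fits the unpaired week 0 library of horse 10 also informs the difference, so pairing is not the only change. Leaving out each horse gave 4809 to 5676 genes and, for the difference between arms, 0 in each case. The 4 named genes kept their direction and their call under 22 alternatives each, with the largest adjusted p at 6.83e-05. Values of measures that did not pass a test turned sign in places. The slope on starting level went from -0.04 to 0.0205 and the change in library spread from -0.09 to 0.126 among genes with a mean of at least 1 log2 CPM. The difference in detected genes went from 158 to -5.14 with at least 5 expected reads, and that in distance from -0.09 to 0.0198 with all libraries. With 1 horse left out these ranged from -0.06 to -0.02, -0.16 to -0.01, 43.2 to 246 and -0.12 to -0.02. The rise in the share of reads in the 100 most abundant genes, 1.69 percentage points, was 1.41 to 1.88 with 1 horse left out, 3.01 with 500 genes, and no longer passed with 10 genes (0.412) or with all libraries (0.643). The cause was not tested. Plain CPM, the arms alone and the differences between abundance ranges were added after seeing the data. Depth limits the scarce genes: 1435 had a median below 10 reads at week 0, of which 162 rose and 1 fell.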
